A study of Ananas comosus with 78 samples.

Results

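Aco022651 was annotated in the study as ethylene response transcription factor (ERTF) Factor 13, and it is 1 of the 27024 genes in the deposited pineapple count tables. It was chosen by its identifier, because the counts of ethephon-treated apices on days 4 to 6 and of ethephon-treated leaf bases at 6 h and on day 4 were above those of the water controls. The ethephon comparisons of this gene are therefore given as a description with no test, and its call in a comparison is read as nothing more. Tests are given only for contrasts that did not enter the choice, which were the difference between the tissues on days 1 to 3 and the change over time in water controls.

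ERTFs are plant DNA-binding proteins of the AP2/ERF family. In Arabidopsis, ethylene binding to its receptors releases the pathway from the kinase CTR1, EIN2 then passes the signal on, and EIN3 and EIL proteins switch on target genes that include ERTFs. Some ERTFs activate and others repress their own targets. In pineapple, ethylene is best known for forcing flowering, and ethephon, which breaks down in plant tissue to ethylene, is applied for that purpose.

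RNA was sequenced from field-grown plants that received 50 mg of ethephon in 10 ml of water, or 10 ml of water alone, in the center of the plant. Ethephon-treated and water-control apices were sampled at 6 h, on days 1 to 6 and on day 8, and ethephon-treated and water-control leaf bases, from the "D" leaf, at 6 h and on each day up to day 4. All 26 conditions had 3 replicates, each a pool of 3 plants, for a total of 78 libraries. The labels named the cultivar both 'MD1' and 'MD2', and no genetic difference was labelled between groups. Trimmed leaf primordia remained on the apices, so the apex samples were not meristem alone. In such bulk samples, fewer cells of a type and less RNA per cell cannot be told apart.

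The library totals were 1418697 to 13180667 counts. The 5 apex marker genes fixed from the study (a pair of WUSCHEL homologs, FLORICAULA/LEAFY, AcFUL1 and AcFUL2) summed to 3.95 to 196 CPM, the counts scaled by library total, in ethephon-treated apices and 2.60 to 29.1 CPM in water-control apices, against 0.604 to 3.47 CPM in ethephon-treated and 0.303 to 2.79 CPM in water-control leaf bases. The ranges of this sum overlapped between water-control apices and leaf bases. The WUSCHEL homolog Aco006233 was at 0 in 13 of 15 ethephon and 15 of 15 water leaf base libraries. The other homolog, Aco015382, was at 0 in 2 of 15 leaf base libraries of each treatment. AcFUL2 did not separate the tissues in water controls, with 11 of 24 apices and 10 of 15 leaf bases at 0. In ethephon-treated leaf bases it was at 0 in 4 of 15. The summed markers reached higher levels in ethephon-treated than in water-control apices, and their part in the apex results was not tested. The sequencing lane differed between ethephon and water libraries in every apex comparison. No lane held both treatments of 1 sampling at the apex, nor in the leaf base on day 3 or day 4.

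Aco022651 lies on linkage group 2, from 5582144 to 5582918 on the plus strand (genome Acomosus_321_v3). The annotation gives it 3 exons of 145, 383 and 16 bases, 544 bases in all, and no other gene overlaps it. It was a low-count gene. The 78 libraries held 650 of its counts in total, with a median of 5, a highest count of 48 and 11 libraries at 0. Ethephon-treated apices held 227 counts and 2 of 24 libraries were at 0, whereas water-control apices held 63 counts and 7 of 24 were at 0. Ethephon-treated leaf bases held 274 counts with 0 of 15 libraries at 0, and water-control leaf bases held 86 counts with 2 of 15 at 0. The fitted coefficient of biological variation between replicates was 0.42, against a median of 0.165 over all genes. That median covers genes at all levels, and genes with counts as low as these were not compared apart.

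After ethephon, Aco022651 was higher at the apex on days 4, 5 and 6, and the groups did not overlap on these days. On day 4, the ethephon-treated apices held 15, 9 and 16 counts and the water-control apices 1, 0 and 1. On day 5, there were 31, 15 and 24 counts in ethephon-treated and 0, 3 and 1 counts in water-control apices. On day 6, there were 16, 13 and 19 counts in ethephon-treated and 5, 3 and 1 counts in water-control apices. Every ethephon library thus had more counts than any control library of its day, and no control library of these days held more than 5.

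After scaling for depth, the pooled ratio of ethephon to water was 21.5 on day 4 (95% exact counting interval 5.57 to 184), 13.8 on day 5 (5.14 to 51.9) and 7.94 on day 6 (3.86 to 18.4). These intervals cover counting error only and not the spread between pools of plants. The fitted log2 fold changes with their standard errors were 4.22 ± 0.76, 3.71 ± 0.69 and 2.92 ± 0.58 (n = 3 against 3). A gene was called at an adjusted p under 0.05 and a change of at least 2-fold, and Aco022651 was called higher on these 3 days, as were 3.53%, 3.83% and 3.46% of all genes tested on days 4, 5 and 6. All 3 ethephon libraries were above all 3 water libraries for 19%, 16% and 18.7% of the genes on those days. Leaving out any library kept the calls, and the log2 fold change on day 5 was 4.98 without water replicate 2, the library with 3 counts.

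At the other apex samplings, the gene was not called. At 6 h, the ethephon-treated apices held 0, 7 and 18 counts and the 3 water controls 0, 0 and 0. Against a floor of 3 counts over the control group, the pooled level was at least 3.88-fold higher, but the groups overlapped because the first ethephon library was also at 0. The call depended on that library, since the gene was called without ethephon replicate 1. Genes called higher at 6 h made up 1.86% of those tested.

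On day 1, the ethephon-treated apices held 2, 2 and 8 counts and the controls 5, 1 and 2, for a log2 fold change of 0.27 ± 0.97. On day 2, there were 0, 11 and 2 counts in ethephon-treated and 3, 0 and 0 counts in control apices, for a pooled ratio of 3.15 (0.865 to 17.2). On day 3, there were 4, 4 and 5 counts in ethephon-treated and 5, 5 and 6 counts in control apices, for a log2 fold change of -0.22 ± 0.66. The groups overlapped on these 3 days, on which 7.7%, 9.76% and 7.2% of genes were called higher. The sign was not stable: the log2 fold change was -0.91 on day 1 without ethephon replicate 3, and -0.10 on day 2 without ethephon replicate 2.

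On day 8, the ethephon-treated apices held 2, 2 and 2 counts and the controls 5, 11 and 5. The ethephon libraries of that day were the shallowest of the series, so that their mean level of 0.15 ± 0.24 log2 CPM (SD, n = 3) was above the -0.42 ± 0.97 of the deeper control libraries, with overlap. The log2 fold change was 0.47 ± 0.85, where 2.82% of genes were called higher. The paper describes a tendency of this gene to higher expression in treated apices from day 5 on. It does not list the gene among its differentially expressed ERTFs. Here the gene was called on day 4 as well, and was not called on day 8.

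**Figure D1:**
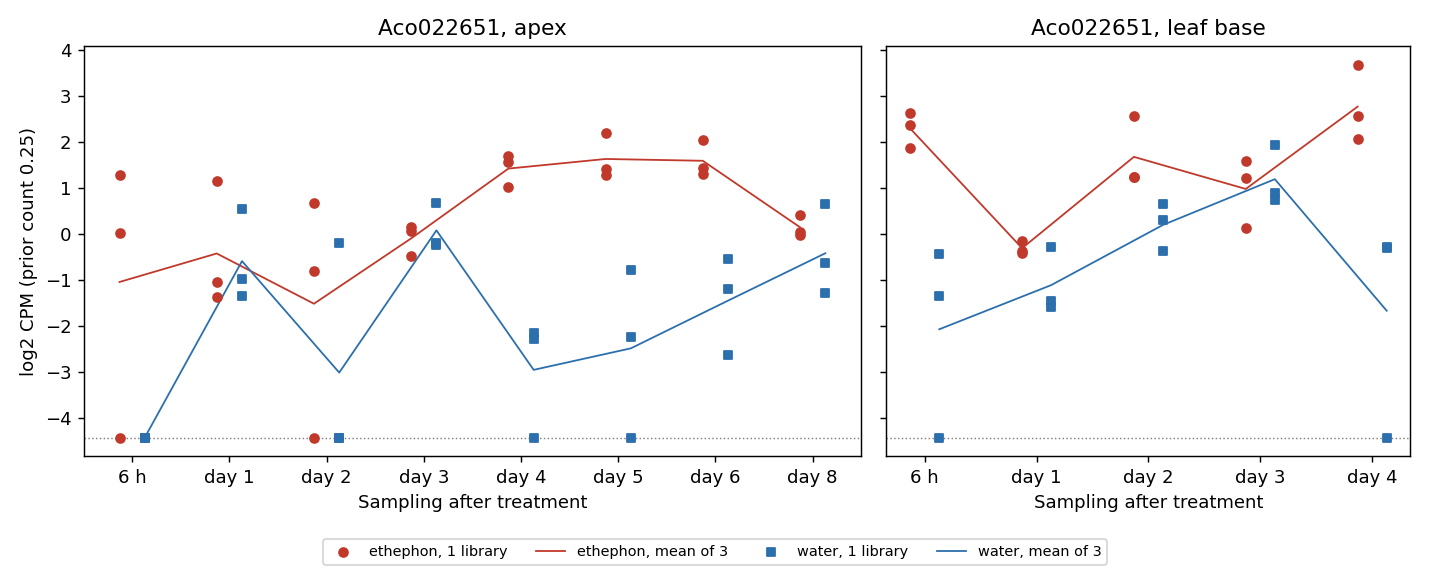
Level of Aco022651 (log2 CPM, prior count 0.25) by sampling at the apex (left) and leaf base (right), with ethephon libraries as circles, water libraries as squares and lines through the means of 3; libraries with 0 counts sit on the dotted line at -4.41. The ethephon libraries lie above all water libraries at the apex on days 4 to 6 and, for leaf bases, at 6 h, day 2 and day 4.

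In the leaf base, Aco022651 was higher after ethephon at 6 h and again on day 4. At 6 h, the ethephon-treated leaf bases held 48, 18 and 33 counts and the water controls 2, 1 and 0. On day 4, there were 13, 17 and 39 counts in ethephon-treated and 4, 0 and 4 counts in water-control leaf bases. The groups were apart at both samplings, and the ethephon-treated leaf bases on day 4 had the most uneven replicates of those called, with the third library well above the others.

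The pooled ratio of ethephon to water was 21.4 at 6 h (7.12 to 106) and 15.8 on day 4 (7.58 to 38.0). The log2 fold changes were 4.21 ± 0.70 and 3.89 ± 0.66. Genes called higher made up 8.59% of those tested at 6 h and 1.4% on day 4, and genes with all 3 ethephon libraries above the water libraries 22.5% and 11.2%. At 6 h, the log2 fold change was 5.31 without water replicate 1 and 3.22 without water replicate 3. On day 4, it was 3.31 without ethephon replicate 3, and 3.24 and no longer called without water replicate 2, the control library at 0.

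On the days between, the difference was smaller. On day 1, there were 6, 3 and 4 counts in ethephon-treated and 2, 1 and 3 counts in water-control leaf bases, for a log2 fold change of 0.77 ± 0.77. On day 2, there were 35, 13 and 12 counts in ethephon-treated and 8, 11 and 2 counts in water-control leaf bases, for a pooled ratio of 2.83 (1.70 to 4.90) and a log2 fold change of 1.49 ± 0.52. The groups of day 2 did not overlap after scaling for depth, which held for 9.44% of genes, but the gene was not called. On day 3, there were 12, 6 and 15 counts in ethephon-treated and 25, 13 and 10 counts in water-control leaf bases, for a log2 fold change of -0.22 ± 0.47. On days 1, 2 and 3, 0.748%, 0.898% and 4.03% of genes were called higher.

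**Figure D2:**
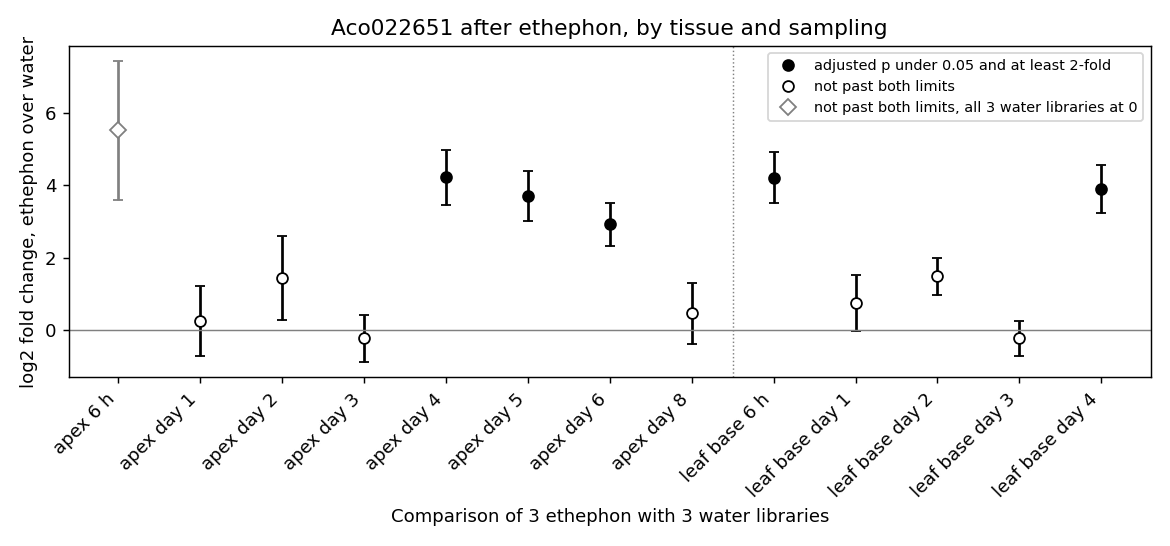
Log2 fold change of Aco022651, ethephon over water, with its standard error (bars) in the 13 comparisons of 3 with 3 libraries; filled circles passed both limits. The 5 filled points lie between 2.92 and 4.22, and the grey diamond at 6 h at the apex is a fitted value against 3 control libraries at 0 and not a bound.

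Across both tissues, 5 of the 13 comparisons were called, 3 of 8 at the apex and 2 of 5 in the leaf base, all higher after ethephon. The log2 fold change was positive in 11 comparisons and negative in 2. Both negative values, on day 3 at the apex and in the leaf base, were smaller than their standard errors.

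Some leaf base comparisons held both treatments in 1 lane. At 6 h, the difference in level within a lane, ethephon minus water, was 2.31 log2 CPM on 1 lane and 6.91 on another, on which the water library was at 0. Within a lane it was 1.17 on day 1 and 2.08 on day 2. In a joint fit of the 78 libraries with lane, which could be had for 4 comparisons, the log2 fold change in the leaf base was 4.18 at 6 h, 0.78 on day 1 and 1.69 on day 2, and at the apex on day 6 it was 3.28 and not called. In the other 9 comparisons the lane and the treatment cannot be told apart. Lane 8 of flow cell HJM2HALXX held the 3 ethephon-treated apices of day 5, at 4.54, 2.62 and 2.37 CPM, and the water-control apices of days 6 and 8, at 0.116 to 1.51 CPM. It also held the ethephon-treated apices of day 1, at 0.34, 0.441 and 2.16 CPM. The same lane held the ethephon-treated apices of 6 h, at 0, 0.968 and 2.37 CPM. It further held replicate 2 of the ethephon-treated apices of day 2, at 1.55 CPM, and replicate 3 of day 4, at 1.97 CPM. The days differed between the treatments on this lane, and the part of the lane in these values was not tested.

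Ordered by mean level, the ethephon-treated leaf bases stood first, on day 4 (2.76 ± 0.83 log2 CPM), at 6 h (2.29 ± 0.38) and on day 2 (1.67 ± 0.76). The ethephon-treated apices of day 5 (1.63 ± 0.50), day 6 (1.59 ± 0.39) and day 4 (1.42 ± 0.36) came next. The highest level in a control was that of water-control leaf bases on day 3 (1.19 ± 0.65). It was followed by ethephon-treated leaf bases on day 3 (0.98 ± 0.76). The lowest were water-control apices on day 5 (-2.48 ± 1.83), day 4 (-2.95 ± 1.27) and day 2 (-3.01 ± 2.44) and at 6 h (-4.41, all at 0). In this order, the gene was not highest at the apex. The ethephon-treated leaf bases of 6 h and day 4 and apices of days 4 to 6 entered the choice of the gene. Their high places in the order follow in part from that choice and are no result. In this order, the ranges of all 25 pairs of neighbors overlapped, and the gap between neighbors exceeded the larger SD in 1 pair, ethephon-treated leaf bases on day 3 above water-control leaf bases on day 2.

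**Figure D3:**
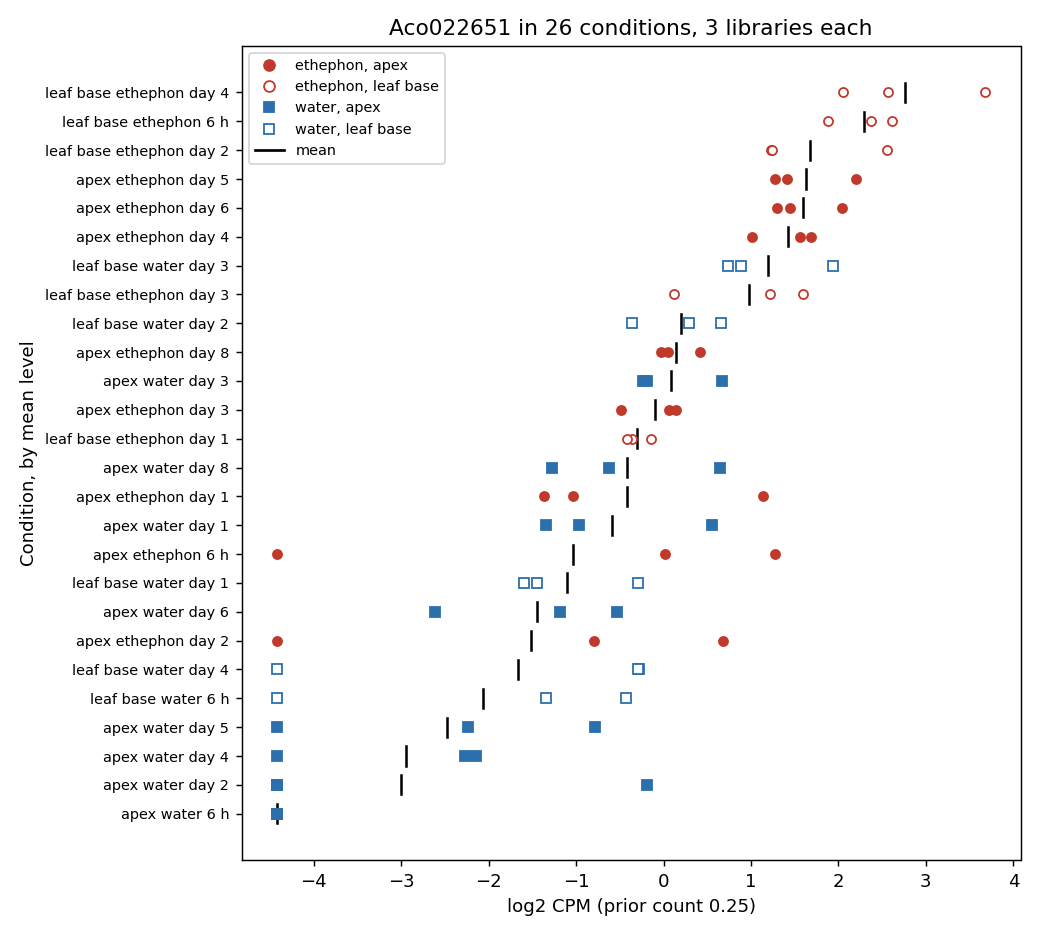
Level of Aco022651 (log2 CPM, prior count 0.25) in each of the 26 conditions, sorted by the mean (black bars), with 1 point for each of 3 libraries, circles for ethephon, squares for water, filled for apex and open for leaf base. The 6 highest means, from 2.76 to 1.42, are ethephon conditions, most of which entered the choice of the gene, and neighboring conditions overlap.

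Tissues were compared on days 1 to 3, in 6 comparisons of 3 apex with 3 leaf base libraries. Adjusted p values were computed by edgeR (quasi-likelihood test) and adjusted by Benjamini-Hochberg across the genes tested. In ethephon-treated plants on day 2, Aco022651 was lower at the apex, with 0, 11 and 2 counts at the apex against 35, 13 and 12 in the leaf base. The log2 fold change of apex over leaf base was -2.04 ± 0.65 (edgeR adjusted p = 0.0125), with all 3 apex libraries below all 3 leaf base libraries. Such a difference was common, since 16.1% of genes were called lower at the apex on that day and 29.7% had apex and leaf base libraries apart in that direction. It was no longer past the threshold without leaf base replicate 1 (-1.46, edgeR adjusted p = 0.140), and was -3.62 without apex replicate 2.

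In the other 5 tissue comparisons the difference did not pass the threshold. In water controls, the log2 fold change of apex over leaf base was 0.71 ± 0.88 on day 1 (edgeR adjusted p = 0.546), -2.03 ± 0.95 on day 2 (edgeR adjusted p = 0.121) and -1.23 ± 0.54 on day 3 (edgeR adjusted p = 0.0745). In ethephon-treated plants it was 0.25 ± 0.85 on day 1 (edgeR adjusted p = 0.828) and -1.19 ± 0.56 on day 3 (edgeR adjusted p = 0.0778). The libraries were apart on water day 3, with the apex below the leaf base, as for 28.4% of genes. In the direction of these values, 8.17%, 12.2% and 14.6% of genes were called on water days 1, 2 and 3, and 15.7% and 17.4% on ethephon days 1 and 3. The gene passed the threshold on water day 2 without apex replicate 1, the only library of that group with counts (edgeR adjusted p = 0.0331), and on ethephon day 3 without leaf base replicate 2 (-1.53, edgeR adjusted p = 0.0260). Whether the tissue difference changed with ethephon was not tested.

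Water controls were also compared over time. In water-control leaf bases, the counts were 2, 1 and 3 on day 1, 8, 11 and 2 on day 2 and 25, 13 and 10 on day 3, and the mean levels were -1.11 ± 0.71, 0.20 ± 0.52 and 1.19 ± 0.65 log2 CPM (SD, n = 3). The level differed between these days (F = 7.41, edgeR quasi-likelihood adjusted p = 0.0320), as it did for 20.5% of all genes. The result rested on few libraries. It was lost without day 1 replicate 1 (edgeR adjusted p = 0.105), day 1 replicate 2 (0.0840) or day 3 replicate 1 (0.160). With the replicate number as a block it was also lost (edgeR adjusted p = 0.0641). The replicate pools came from 3 field replications, but the labels do not say that a replicate number is a field replication. Water-control leaf bases on day 3 had 2 of 3 libraries on a lane that held none of days 1 and 2, and the part of the lane in the difference was not tested.

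In water-control apices at 6 h and on days 1, 2, 3 and 8, the difference over time did not pass the threshold (F = 2.74, edgeR quasi-likelihood adjusted p = 0.0949), while 46.5% of all genes did. The 3 libraries of day 8 were on another lane than the rest. The difference passed without day 2 replicate 1 (edgeR adjusted p = 0.0288).

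Per length of exon, Aco022651 was among the least abundant ERTFs. Its highest level was 13.9 CPM per kb, in ethephon-treated leaf bases on day 4, where the median of the other 37 ERTFs of the list was 27.9 CPM per kb. It ranked between 27 and 38 of 38 in the 26 conditions. Among all genes, its percentile was 67.4 in ethephon-treated leaf bases on day 4 and 53.0 in ethephon-treated apices on day 5. In water-control apices on day 4 it was 28.6.

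The 37 other ERTFs came from the study's text and its list of differentially expressed (DE) genes, which was chosen on these samples and is not independent evidence of a direction. At the apex, 9 of 36 tested were called higher at 6 h (1.86% of all genes were), 21 of 37 on day 1 (7.7%), 15 on day 2 (9.76%) and 13 on day 3 (7.2%). Members called lower numbered 9 on day 3 (7.19% of all genes), and 1 was called lower on day 2. The number called higher was 11 on day 4 (3.53%), 10 on day 5 (3.83%) and 3 on day 6 (3.46%), with 1 called lower on day 4 and 2 on day 6. On day 8 it was 0 by edgeR (2 at an unadjusted p under 0.05), and 16 were called lower, where 4.73% of all genes were. The median log2 fold change of the list was 1.53 for day 1, -0.016 for day 3, 0.57 for day 4, 0.43 for day 5, 0.33 for day 6 and -1.11 for day 8, against medians of -0.061 to -0.00051 over all genes tested. Calls of higher members were thus most numerous on day 1, a day on which Aco022651 was not called. In the leaf base, 5 were called higher and 10 lower at 6 h (8.59% and 11% of all genes), and 1 higher and 10 lower on day 4 (1.4% and 2.23%), the samplings at which Aco022651 was called higher.

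Among the 38 genes, the log2 fold change of Aco022651 ranked 1 of 38 at the apex on day 4 and day 6 and in leaf bases at both called samplings, and 2 of 38 at the apex on day 5, after Aco002699 (4.18). On day 1 at the apex it ranked 34. Of the other 37, 2 were called higher at the apex on each of days 4, 5 and 6, namely Aco001190 of group Ib and Aco006567 of group VIIIa. In the leaf base, 1 was called higher both at 6 h and on day 4, Aco010738 of group VI, and 0 of the 37 were called higher at all 5 samplings. Aco022651 was chosen for being higher at these 5 samplings, so its ranks and calls there follow from the choice and are no result. The share of all genes called higher at each of these sets of samplings was not computed. The other genes were named after their values were seen.

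Group IX contains the Arabidopsis ERTF named ERF13, and 6 members of this group were in the list. The group of Aco022651 itself was not given. Aco012858 (IXb) was called higher at the apex on days 1 to 5 and in the leaf base on day 3, with its greatest log2 fold change, 3.48, at the apex on day 3. Aco011669 (IXa) was called higher in 4 comparisons, including the apex on day 5 (2.27). Aco006883 (IXc) was called higher in 2, both at the apex (days 1 and 2). Aco010430 (IXc) was called lower in 4 comparisons and Aco012860 (IXa) in 1, and neither was called higher. Aco005324 (IXa) was called higher at the apex on day 1 (1.12) and lower in 3 comparisons, including the leaf base at 6 h (-2.77), where Aco022651 was at 4.21. None of the 6 was called higher in the leaf base at 6 h or on day 4, where 8.59% and 1.4% of all genes were. With 6 genes, none called is near these shares and is no result.

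**Figure D4:**
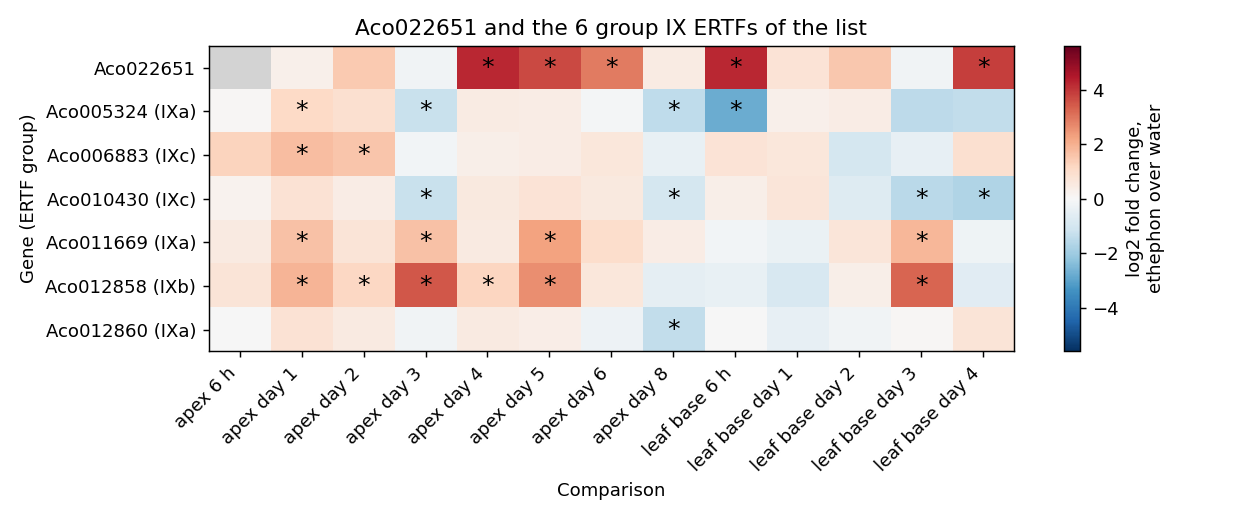
Log2 fold change, ethephon over water, of Aco022651 (top row) and the 6 group IX ERTFs of the list in the 13 comparisons, with stars for an adjusted p under 0.05 and at least 2-fold; the grey cell had 3 control libraries at 0. Aco022651 has 5 stars, and of the others Aco012858 has 6, all higher.

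Of the 17 genes of ethylene synthesis and signalling (ACC synthases and oxidases, which make ethylene, receptors, CTR1, EIN2 and EIN3/EIL), 3 were called higher at the apex on day 4 (3.53% of all genes), 1 on day 5 (3.83%) and 1 on day 6 (3.46%), and 2 were called lower on day 6 (2.59%). In the leaf base, 4 were called higher and 3 lower at 6 h, where 8.59% of all genes were called higher and 11% lower, and 1 was called lower on day 4, where 2.23% were. The list median was 0.52 on the log2 scale for leaf bases at 6 h and between -0.08 and 0.09 at the other 4 samplings.

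AcFUL1 (Aco004839) and AcFUL2 (Aco012428), homologs of the Arabidopsis MADS-box flowering gene FRUITFULL, were called higher at the apex from day 1 onwards. The log2 fold change of AcFUL1 was 3.74 ± 0.53 on day 1 and 5.04 ± 0.24 on day 4, and that of AcFUL2 3.15 ± 0.46 on day 1. Aco022651 was at 0.27 ± 0.97 on day 1 and was not called at the apex before day 4 in the pairwise fits. At 6 h, however, its apex counts were 0, 7 and 18 against 0, 0 and 0, and a joint fit of 78 libraries called it (5.73). Its rise on days 4 to 6 entered the choice of the gene, so the difference in timing is no result. In the leaf base at 6 h, neither AcFUL gene was called.

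Likeness of pattern was measured by Pearson's r of the mean log2 CPM over the 26 conditions, across 19823 genes, as a description. The points share libraries within a condition and the values of Aco022651 are noisy at low counts. The 5 genes most like it were Aco005383 (r = 0.748), Aco006499 (0.745), Aco018909 (0.741), Aco002869 (0.741) and Aco010342 (0.740), whose annotation is not given in the sources used here. No gene stood apart. Aco005383 was called higher at the apex on days 4, 5, 6 and 8 and in the leaf base at 6 h, by a log2 fold change of 1.02 to 2.33. Aco006499 was called higher at the apex on days 5 and 6 and in the leaf base at 6 h, by 1.00 to 1.84. Genes called higher made up 3.53%, 3.83%, 3.46% and 2.82% of those tested at the apex on days 4, 5, 6 and 8. In the leaf base at 6 h they made up 8.59%. The 5 genes were picked by r over means that include the conditions used to choose Aco022651. Calls of the 5 genes at those samplings follow in part from the pick and are no result. Aco018909 was called in 0 of the 13 comparisons by edgeR, and 0 had an unadjusted p under 0.05. With Spearman's rho 3 of these 5 remained among the first 5, with a prior count of 2, 2 remained, and with the 16 apex means alone 0 did, where their ranks were 40 to 466.

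Among the other ERTFs, r was between -0.55 and 0.52 with a median of 0.19. Aco006074 was the highest (0.517) and Aco021063 of group VIIa the lowest (-0.553). Aco006074 was called higher in the leaf base at 6 h (1.74 ± 0.60) and on day 3 (2.04 ± 0.39), and Aco021063 was called lower at the apex on day 3 (-1.37 ± 0.15).

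The nearest annotated gene, Aco022652, lies 1272 bases to the right on the minus strand. By edgeR, 0 of its 13 comparisons were called, with 6 at an unadjusted p under 0.05. At the apex its edgeR adjusted p was under 0.05 on days 1, 4, 5 and 6. The log2 fold change on these days was -0.59, -0.42, -0.47 and -0.45, lower after ethephon but by less than 2-fold. The next to the right, Aco022653, was called higher at the apex on day 1 (1.03) and in the leaf base at 6 h (1.02). To the left, Aco022649 lies 59741 bases away and held 25 counts in all 78 libraries, and Aco022754 lies 79693 bases away and held 77. Neither was called, and 0 of their comparisons had an unadjusted p under 0.05. The reads were counted without regard to strand, but no gene overlaps Aco022651.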

How the data were processed

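Reads were from a strand-specific mRNA library kit. Per the labels and the paper's methods, the authors trimmed reads with Trimmomatic 0.36, aligned them with HISAT2 2.0.5 to Acomosus_321_v3 and counted pairs on exons with featureCounts 1.6.0, without strand and with multi-mapping reads included. The deposited values are raw counts per gene, 1 file per library, and all other values were computed from them. Tissue, treatment, sampling and replicate came from the labels. Their sampling numbers were read as 6 h and days 1 to 6 and 8 (apex) and as 6 h and days 1 to 4 (leaf base), from the paper's Results, while its Methods also name a leaf sampling on day 5.

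Each comparison of 3 with 3 libraries was fitted in R 4.3.3 by the quasi-likelihood test of edgeR 4.0.16, after TMM scaling, on genes with a count of 1 or more, with Benjamini-Hochberg adjustment. The call was an adjusted p under 0.05 and at least 2-fold. Levels are log2 CPM with a prior count of 0.25 and TMM factors over 19824 genes that reached 1 CPM in 3 or more libraries. Pooled ratios use summed counts and summed effective library sizes, with exact binomial 95% intervals. Alternatives were DESeq2 1.42.0, RLE factors, a 1 CPM filter, a replicate block, joint fits with and without lane, a prior count of 2, scaling by library size, and leaving out each library. No replicate pair agreed within sampling noise (lowest chi-square per gene 1.60). Per the paper's methods, 3 plants were taken from each of 3 field replications of 1 plot, so p values measure the spread between pools of 1 field.

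The named genes were Aco022651, the 5 genes with the highest r to it, the 2 nearest genes on each side, the 6 group IX ERTFs, the ERTFs with the highest and lowest r, AcFUL1 and AcFUL2. The gene and the lists were chosen with earlier results of these data known. The sequence of Aco022651 was not used here.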

Additional observations from a re-analysis of the deposited data

How the results depend on the processing

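The 13 ethephon comparisons kept direction and call under RLE factors, DESeq2, a 1 CPM filter and the replicate block wherever these gave a value. DESeq2 gave no adjusted p in 5 of them, and the filter removed the gene in 4 of them and in 3 tissue comparisons. A joint fit of 78 libraries called the apex at 6 h too (5.73). With lane, it gave 3.28 and no call at the apex on day 6, and 9 comparisons could not be fitted. With libraries left out, the log2 fold change was 4.26 to 6.00 at the apex at 6 h, -0.91 to 1.09 on day 1, -0.10 to 4.88 on day 2, -0.39 to 0.073 on day 3, -0.54 to 0.27 in the leaf base on day 3 and 3.24 to 4.32 on day 4. For apex over leaf base it was -0.10 to 1.20 (water day 1), -5.57 to -1.49 (water day 2), -0.94 to 0.71 (ethephon day 1), -3.62 to -1.46 (ethephon day 2) and -1.53 to -0.87 (ethephon day 3).

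Same-numbered replicates did not deviate together in any of the 13 comparisons (r from -0.15 to 0.08), and each library correlated best with its own number in 2 of 13. With the replicate block, the log2 fold change was 4.26, 3.70 and 2.92 at the apex on days 4, 5 and 6, and 4.18 (6 h) and 3.86 (day 4) for the leaf base. Over time in water-control leaf bases, the block gave an edgeR adjusted p of 0.0641, past the threshold no more, and left-out libraries 0.0258 to 0.160. In water-control apices, left-out libraries gave 0.0288 to 0.206. All 8 samplings gave an edgeR adjusted p of 0.0489, but these include days 4 to 6, whose values entered the choice of the gene, so that value is no test. The cause of these changes was not tested.

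A prior count of 2 moved 6 low levels by more than their SD, to 0.34 and 0.52 log2 CPM (ethephon-treated apices, days 3 and 8), -1.41 and -1.06 (water-control apices, 6 h and day 4), 0.19 (ethephon-treated leaf bases, day 1) and -0.31 (water-control leaf bases, day 1). The level of all-zero libraries was -4.42 with RLE factors or library size only. Of the 5 genes most like Aco022651, 3 remained with Spearman's rho, 0 with the 16 apex means and 2 with a prior count of 2. The depth limits every value of this gene, with a median of 5 counts in a library.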

Other observations

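Over the 16 apex condition means alone, r between Aco022651 and the 15 floral and meristem genes of the list was positive for every gene, from 0.34 to 0.78 with a median of 0.63. It was highest for AcFUL1 (0.778). Over all 26 condition means, the same genes had r from -0.27 to 0.52 with a median of 0.08, and AcFUL1 0.040. These are descriptions across condition means that share libraries and low counts. The apex means include the ethephon-treated apices of days 4 to 6, whose values entered the choice of the gene. The list came from the study's text on these same samples, so a positive r is not independent evidence. The share of positive r over all genes was not computed. Of the list, 10 of 14 genes tested were called higher at the apex on day 4, where 3.53% of all genes were. In the leaf base at 6 h, 0 of 13 were called higher by edgeR (2 of them higher at an unadjusted p under 0.05), where 8.59% of all genes were. With 13 genes, 0 is near that share. Aco022651 was called higher at both samplings, but these entered the choice of the gene.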
